A study of Mus musculus with 12 samples.

Results

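The 41 genes described here are interferon-stimulated genes, genes of interferon signalling and genes that present antigen on MHC class I, chosen by name from a list that was drawn up with earlier results of these data known, out of 49585 genes counted in haematopoietic stem cells (HSCs) of WT and Pon2-/- mice. All 41 were found in the files by name, all had at least 1 count in at least 1 sample, and 39 passed the filter on low counts that left 11848 genes for testing. Ifit3 and Mx2 did not pass it. RNA-seq was made from Lin-, Sca1+, ckit+, CD135- and CD150+ bone marrow cells of 6 WT and 6 Pon2-/- mice, all labelled C57BL/6J, between 10 and 14 weeks old and untreated. The labels name the cells LT-HSCs, and by the study's methods MPP2 cells fall in the same gate. In Pon2-/- mice a gene trap with a beta-geo cassette between loxP sites sits in the second intron of Pon2, and the WT mice came from a commercial supplier, with no littermates stated. Each sample combines 8 wells of 10 sorted cells, so that 80 cells stand behind each value, and a sample is 1 mouse.

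Interferons signal through pairs of receptor chains on the cell surface, type I through IFNAR1 and IFNAR2 and type II through IFNGR1 and IFNGR2, which activate Janus kinases and STAT transcription factors. Type I interferon assembles a complex with STAT2 and IRF9 that binds the interferon-stimulated response element (ISRE), whereas the response to type II interferon runs mainly through the gamma-activated site (GAS). Stem cells are known to keep part of the interferon-stimulated programme expressed without infection, and interferon is known to drive HSCs out of quiescence.

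Samples held 12967791 to 24228280 counts on genes, and levels are given as counts per 1000000 counts (CPM). A count of 0 allows a level of up to 3 counts, which is 0.124 to 0.231 CPM for counting error only. Pon2 lay at 56.4 to 202.0 CPM in WT samples and at 1.16 to 33.1 CPM in Pon2-/- samples, without overlap of the genotypes, with the lowest value in Pon2-/- replicate 5. The 10 genes listed for the HSC gate, such as Kit, Slamf1 and Procr, all had counts, and their summed level was 2236 to 2803 CPM in WT and 2336 to 2737 CPM in Pon2-/- samples. Flt3, which encodes CD135, was at 4.59 to 65.0 CPM over all samples although CD135+ cells were gated out. Markers of other cells varied between mice of both genotypes. The 10 genes of neutrophils, monocytes and macrophages summed to 607.6 to 9451 CPM in WT and 639.4 to 14520 CPM in Pon2-/- samples, with S100a8 from 0 to 8577 CPM. The 10 B lineage genes summed to 25.5 to 492.2 CPM in WT and 69.3 to 10440 CPM in Pon2-/- samples, with the highest level in Pon2-/- replicate 3. The 9 erythroid genes found summed to 9.16 to 51.1 CPM in WT and 0.833 to 25.3 CPM in Pon2-/- samples, with 3 of them at 0 in all samples. Of the 10 T and NK lineage genes 3 were at 0 in all samples, Cd3e among them, and the sum was 55.9 to 279.2 CPM over all samples. The 10 dendritic cell genes, 1 of them at 0, summed to 26.9 to 185.6 CPM, and the 10 megakaryocyte genes to 155.5 to 334.4 CPM. The part of these cells in the levels below was not tested, and in bulk samples fewer cells of a type cannot be told apart from less RNA per cell.

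RefSeq promoter windows on GRCm38.p6, from 250 bases before to 50 bases after the start site, were matched by symbol for 32 of the 41 genes. Zbp1, Oas2, Mx1, Mx2, Usp18, Parp14, Rtp4, Ifi27 and Tap2 had no entry. The ISRE core GAAANNGAAA, searched on both strands, was found in 14 of the 32 genes (43.8%) and in 3.99% of all 27025 genes with a window, and the GAS TTCNNNGAA in 9 of the 32 (28.1%) and in 9.55% of all genes. The ISRE core was present in 5 of 6 sensor and OAS genes with a window and in 6 of 9 antiviral effectors, but in none of the 6 receptor and kinase genes and in 1 of 5 MHC class I genes. The windows of Isg15 and Ifit1 are shown as strongly inducible genes with several cores, and Ifitm3 and Ifitm1 as neighbours of 1 family whose windows differ in motifs. B2m is shown as the only MHC class I gene whose window held a core, and Irf9 as a subunit of the factor that binds the ISRE. They are written 5′ to 3′ on the strand of the gene in lower case, with ISRE cores and GAS in capitals, and a core on the other strand reads with TTTC in place of GAAA. 
Isg15 (chr4:156200769-156201068, minus strand): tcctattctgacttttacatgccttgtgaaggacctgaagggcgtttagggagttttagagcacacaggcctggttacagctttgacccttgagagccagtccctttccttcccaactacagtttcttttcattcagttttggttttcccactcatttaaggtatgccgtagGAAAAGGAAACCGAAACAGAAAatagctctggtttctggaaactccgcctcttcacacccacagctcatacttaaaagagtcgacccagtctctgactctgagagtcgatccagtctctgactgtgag
Ifit1 (chr19:34640639-34640938, plus strand): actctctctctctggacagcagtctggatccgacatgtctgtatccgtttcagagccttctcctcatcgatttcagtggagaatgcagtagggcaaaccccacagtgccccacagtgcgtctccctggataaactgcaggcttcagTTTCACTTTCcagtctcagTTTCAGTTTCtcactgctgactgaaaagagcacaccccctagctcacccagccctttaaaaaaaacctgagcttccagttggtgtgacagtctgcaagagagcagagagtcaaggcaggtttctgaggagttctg
Ifitm3 (chr7:141010695-141010994, minus strand): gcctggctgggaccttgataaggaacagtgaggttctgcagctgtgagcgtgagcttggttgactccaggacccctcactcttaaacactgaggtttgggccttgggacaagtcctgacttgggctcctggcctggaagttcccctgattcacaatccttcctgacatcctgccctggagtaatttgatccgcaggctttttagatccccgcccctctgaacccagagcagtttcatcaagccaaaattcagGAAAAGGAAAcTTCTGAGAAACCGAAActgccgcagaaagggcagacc
Ifitm1 (chr7:140967826-140968125, plus strand): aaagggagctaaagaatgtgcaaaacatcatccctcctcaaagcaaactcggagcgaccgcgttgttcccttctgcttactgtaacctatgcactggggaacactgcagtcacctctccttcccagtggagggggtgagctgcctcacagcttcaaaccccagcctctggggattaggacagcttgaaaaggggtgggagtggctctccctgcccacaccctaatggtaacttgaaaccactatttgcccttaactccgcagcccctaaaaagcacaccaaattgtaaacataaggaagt
B2m (chr2:122147437-122147736, plus strand): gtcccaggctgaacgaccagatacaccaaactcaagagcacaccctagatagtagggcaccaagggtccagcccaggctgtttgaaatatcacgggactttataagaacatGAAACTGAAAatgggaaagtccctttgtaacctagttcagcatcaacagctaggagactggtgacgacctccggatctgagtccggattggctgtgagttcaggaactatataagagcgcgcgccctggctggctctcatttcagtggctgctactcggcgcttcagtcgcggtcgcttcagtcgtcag
Irf9 (chr14:55603735-55604034, plus strand): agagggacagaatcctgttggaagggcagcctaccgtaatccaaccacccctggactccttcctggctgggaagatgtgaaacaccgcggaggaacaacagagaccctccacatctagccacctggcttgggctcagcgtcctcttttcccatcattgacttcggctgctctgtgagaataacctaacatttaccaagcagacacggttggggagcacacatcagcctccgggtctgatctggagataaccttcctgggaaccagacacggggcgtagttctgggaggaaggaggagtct
In Isg15, 3 cores overlapped in 1 run that began 78 bases before the start site. Ifit1 held 2 cores on the opposite strand, and Ifitm3 held 2 cores with a GAS that overlapped the second of them. The window of Ifitm1 held neither motif. It lies downstream of the gene start annotated in GENCODE (chr7:140967221), and the bases around that start were not searched. Irf9 has a further window, and neither of its windows held a motif. Both lie downstream of its gene start in GENCODE (chr14:55603571), and the bases around that start were not searched. The windows of H2-D1 and Tapbp, which held no motif, also lie downstream of their gene starts in GENCODE. A match describes letters in a window only, and a missing match says nothing about binding.

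The plot of levels in each sample shows how far these genes differ in level. Per kb of exon, 5 of the 41 genes had a mean level above 1000 CPM, namely B2m, Ifitm3, Ifitm1, H2-K1 and H2-D1, and 23 had a mean below 20 CPM per kb. B2m, at 7636 CPM per kb over all samples, was the highest, and Mx2, at 1.03 CPM per kb, the lowest. In all 12 samples 35 of the 41 genes had a count, and each sample had counts for 36 to 41 of them. H2-K1 and H2-D1 are near copies (90.6% identity), and levels of near copies are uncertain because reads that match both cannot be assigned to either.

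**Figure D1:**
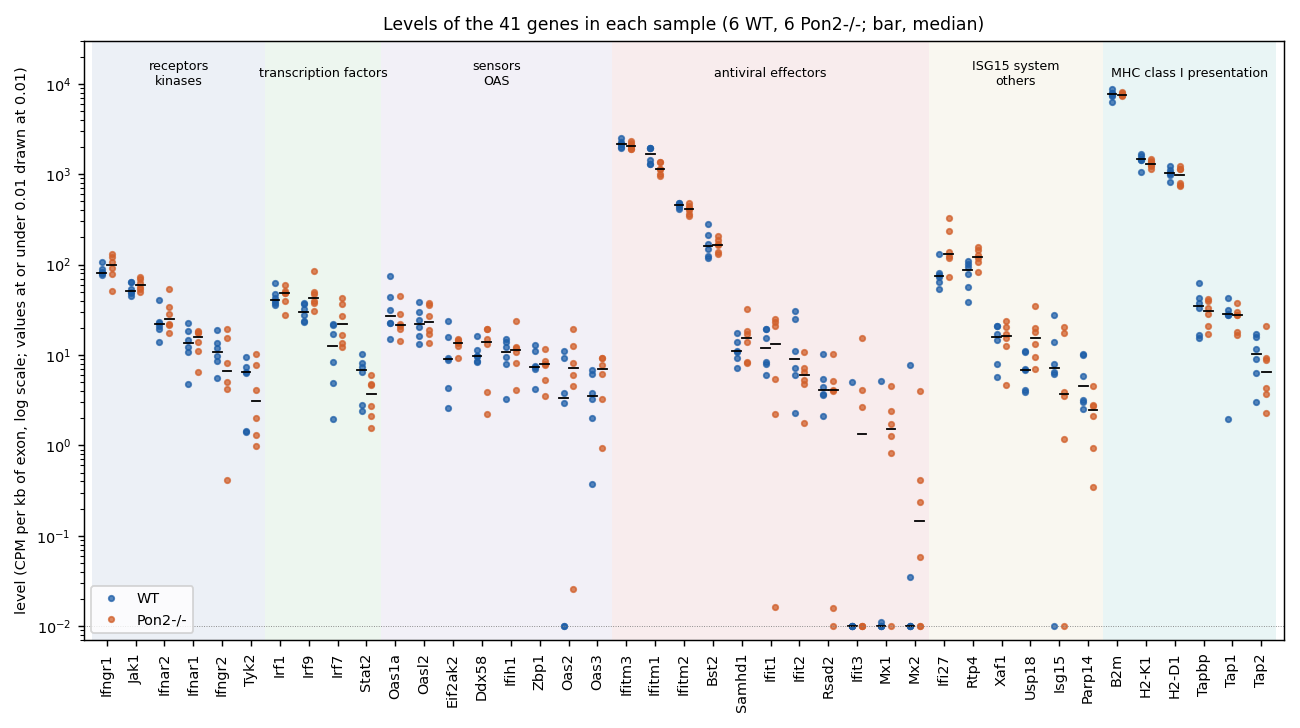
Level of each of the 41 genes in CPM per kb of exon (log axis), with 1 point per mouse, WT in blue and Pon2-/- in orange, a bar at the median and shading by role. Values at or under 0.01 are drawn at 0.01. The MHC class I genes B2m, H2-K1 and H2-D1 and the Ifitm genes stand at the top, and Ifit3, Mx1 and Mx2 at the bottom.

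Between the genotypes, no member was called. A call required an FDR below 0.05 over all tested genes and a fold change above 2 in edgeR's quasi-likelihood test, and 0 of 39 tested members reached it, beside 24 of 11848 tested genes (0.203%). The smallest adjusted p among the members was 0.761 (edgeR). DESeq2 called 0 of 40 members, beside 1.79% of the genes with an adjusted p, and limma voom called 0 of 39, beside 0.194%. For 0 of 39 members did all samples of one genotype lie above all samples of the other, beside 0.633% of the tested genes. The fold was higher in Pon2-/- HSCs for 21 and lower for 18 of the 39 members, and their median log2 fold change was 0.01, against -0.01 over all tested genes.

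An unadjusted p below 0.05 was found for 6 of 39 members (15.4%) with edgeR, beside 3.13% of the tested genes. Of these, 4 were higher in Pon2-/- HSCs (10.3% of members, beside 1.7% of tested genes), namely Irf9, Usp18, Rtp4 and Ifi27, and 2 were lower (5.13%, beside 1.43%), namely Ifitm1 and Parp14. The exact permutation test over all 924 relabellings of the samples gave an unadjusted p below 0.05 for the same 6 members, beside 5.87% of the tested genes. DESeq2 gave 7 of 40 (17.5%, beside 7.45%), with Ifit2 added, and limma voom 6 of 39 (15.4%, beside 6.36%), with Mx1 in place of Parp14. None of the 6 passed the adjustment over all tested genes in edgeR, and no test of the list as a whole was made. The list was drawn up with earlier results of these data known. Its members also vary less within genotypes than all tested genes (median SD of log2 CPM 0.70 against 0.99). The shares are therefore not a like comparison. The 6 do not share a role, and 4 of them stand in the group of ISG15-related and other induced genes.

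**Figure D2:**
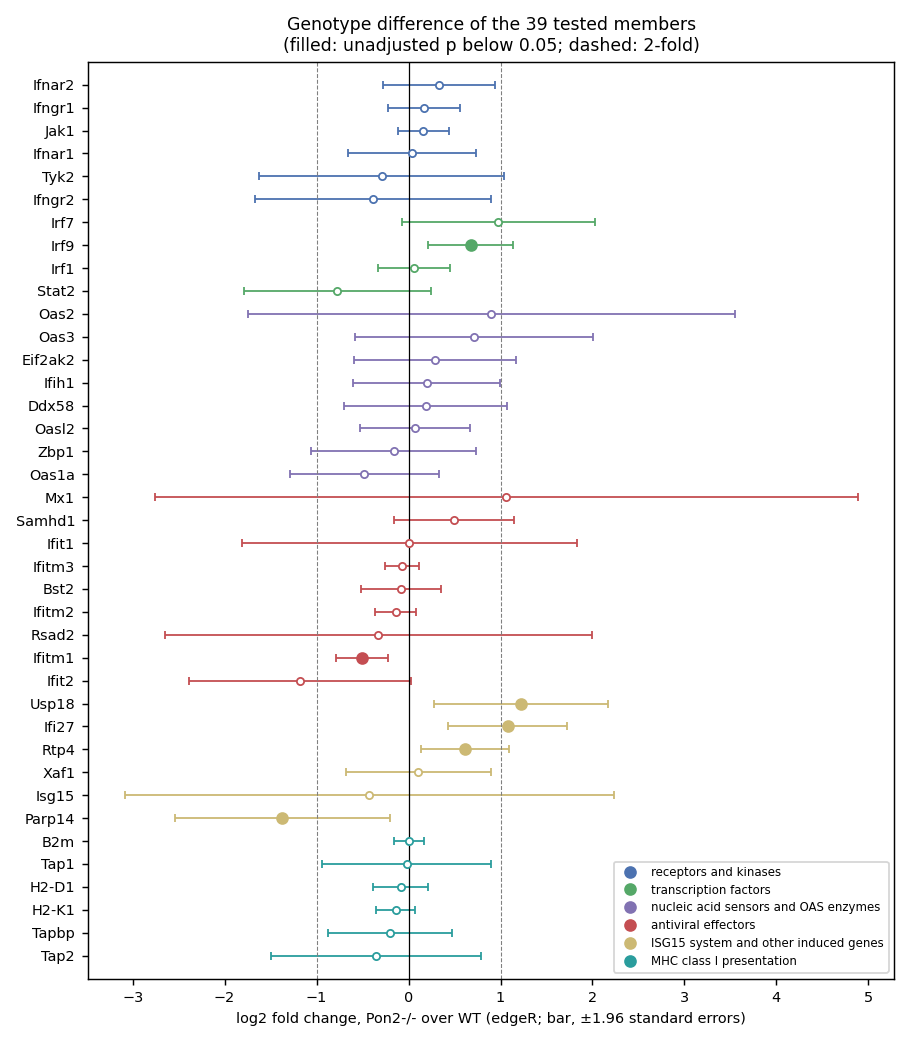
Log2 fold change of the 39 tested members, Pon2-/- over WT, with approximate 95% intervals from standard errors derived from edgeR's F statistic, coloured by role. Filled points mark the 6 members with an unadjusted p below 0.05, and the dashed lines mark 2-fold. Intervals of B2m, H2-K1, H2-D1 and the Ifitm genes are narrow, and those of Mx1, Oas2, Isg15 and Rsad2 reach far past 2-fold on both sides.

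The width of the intervals shows for which members these data limit a change more closely. The intervals are approximate. They use a normal quantile of the standard error and are narrower than the F-test would give. The standard errors (SE) given here were derived from the log2 fold change and edgeR's F statistic. For 17 of the 39 tested members the approximate 95% interval of the fold change lay within 2-fold in both directions. These were Ifnar1, Ifnar2, Ifngr1, Jak1, Irf1, Ifih1, Oasl2, Bst2, Ifitm1, Ifitm2, Ifitm3, Xaf1, B2m, Tap1, Tapbp, H2-D1 and H2-K1. Some of these lay close to the limit, such as Ifih1 with an upper end at a log2 fold change of 0.996. A wider interval could take them past 2-fold. For the other 22 the interval reached past 2-fold, so that a missing call does not show equal expression.

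The receptor chains and kinases were all detected in every sample, and none of the 6 had an unadjusted p below 0.05. Jak1, the kinase that serves both receptor types, was at 322.2 CPM in the lowest, 371.7 in the median and 468.0 in the highest WT sample. In Pon2-/- samples it was at 355.2, 426.4 and 528.5 CPM. The genotypes overlapped, and the log2 fold change was 0.16 (95% interval -0.11 to 0.43). Ifngr1, the ligand-binding chain of the type II receptor, was at 217.8, 232.7 and 304.6 CPM in WT and at 145.5, 283.5 and 371.0 CPM in Pon2-/- samples. Its range in Pon2-/- samples enclosed the whole WT range. Ifnar1, a chain of the type I receptor, was at 28.1, 79.9 and 135.8 CPM in WT and at 38.8, 93.6 and 109.8 CPM in Pon2-/- samples. Tyk2, the kinase bound to IFNAR1, was at 9.64, 44.0 and 64.4 CPM in WT and at 6.82, 21.2 and 70.9 CPM in Pon2-/- samples. Both genes varied several-fold within each genotype, and the genotypes overlapped. Ifnar2 ranged from 46.5 to 177.1 CPM and Ifngr2 from 1.55 to 72.3 CPM over all samples, the lowest Ifngr2 level being in Pon2-/- replicate 1. Summed per kb, the 6 genes had 194.6 ± 13.4 CPM per kb in WT and 214.0 ± 49.6 in Pon2-/- samples (SD, n = 6 each). The ligands themselves were nearly absent. Of 20 interferon genes 17 had no count in any sample, Ifna9 and Ifna15 had 1 count each, Ifnk had 15 counts in 2 samples, and none could be tested.

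Of the transcription factors, Irf9 was the one with an unadjusted p below 0.05. IRF9 is the DNA-binding subunit of the complex that holds STAT2. Its gene was at 126.2 CPM in the lowest, 161.8 in the median and 204.1 in the highest WT sample, and at 167.0, 232.2 and 461.3 CPM in Pon2-/- samples. The highest value was in Pon2-/- replicate 2, and the genotypes overlapped between 167.0 and 204.1 CPM. The log2 fold change was 0.67 (SE 0.24, edgeR unadjusted p = 0.0129, adjusted p = 1.0, exact permutation p = 0.0195). Without Pon2-/- replicate 2 it was 0.43. STAT2, its partner, had a transcript at 14.1, 40.9 and 60.7 CPM in WT and at 9.13, 21.9 and 35.9 CPM in Pon2-/- samples, with a log2 fold change of -0.78 (95% interval -1.80 to 0.24). Irf7, which amplifies the type I interferon response, was at 7.48, 48.1 and 82.7 CPM in WT and at 46.6, 83.1 and 163.0 CPM in Pon2-/- samples. Its log2 fold change of 0.98 had an interval from -0.08 to 2.03. Irf7 lay at 64.5 to 82.7 CPM in WT replicates 1 to 3 and at 7.48 to 31.6 CPM in WT replicates 4 to 6. Stat2 and Irf7 overlapped between the genotypes. Irf1, the early factor downstream of interferon gamma, was at 142.0, 162.2 and 250.9 CPM in WT and at 109.6, 192.2 and 235.9 CPM in Pon2-/- samples, and its log2 fold change was 0.06 (95% interval -0.34 to 0.45). The summed level of the 4 genes was 93.3 ± 20.3 CPM per kb in WT and 122.8 ± 19.3 in Pon2-/- samples (SD, n = 6 each), with overlap. Mean levels in WT and Pon2-/- samples were 30.3 and 48.4 for Irf9 and 12.65 and 24.9 for Irf7. They were 44.1 and 45.8 for Irf1 and 6.25 and 3.65 for Stat2.

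The 8 nucleic acid sensors and OAS enzymes had no member with an unadjusted p below 0.05. OAS enzymes make the second messenger that activates RNase L upon double-stranded RNA. Oasl2, an OAS-like gene, was at 84.8, 141.6 and 244.0 CPM in WT and at 87.0, 147.3 and 237.9 CPM in Pon2-/- samples (lowest, median, highest), so that the ranges nearly coincided. Oas1a was at 28.2, 50.9 and 139.3 CPM in WT and at 26.8, 40.5 and 84.6 CPM in Pon2-/- samples, and it shares 97.5% identity with Oas1g. Oas3 was at 2.64, 24.9 and 48.3 CPM in WT and at 6.54, 49.0 and 66.1 CPM in Pon2-/- samples. The genotypes overlapped for all 3 of these genes. Oas2 was at 0, 14.9 and 49.1 CPM in WT and at 0.114, 31.7 and 85.9 CPM in Pon2-/- samples. It was at or under the limit of a 0 count in WT replicates 1 and 5 and in Pon2-/- replicate 3, and above 12 CPM in every other sample. The RNA sensors Ifih1 (MDA5) and Ddx58 (RIG-I) ranged from 26.9 to 194.3 CPM and from 15.9 to 137.5 CPM, Eif2ak2, the kinase PKR, from 13.1 to 122.6 CPM, and the Z-nucleic acid sensor Zbp1 from 12.3 to 46.1 CPM over all samples. The summed level of the 8 genes was 106.8 ± 40.7 CPM per kb in WT and 109.0 ± 18.5 in Pon2-/- samples (SD, n = 6 each).

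Among the antiviral effectors Ifitm1 and Ifitm3, which encode membrane proteins that block virus entry, stood far above the rest. Ifitm1 was at 1429 CPM in the lowest, 1847 in the median and 2141 in the highest WT sample, and at 1052, 1252 and 1504 CPM in Pon2-/- samples. The genotypes overlapped between 1429 and 1504 CPM. WT replicates 1 to 3 lay at 1429 to 1583 CPM and WT replicates 4 to 6 at 2110 to 2141 CPM. The WT median thus falls in a gap between them, and the former lie much nearer to the Pon2-/- samples. WT replicates 1 to 3 also held more counts on genes (19149531 to 24228280) than WT replicates 4 to 6 (12967791 to 16054035). Not all members split in this way. The cause of this split was not tested. The log2 fold change was -0.50 (SE 0.15, edgeR unadjusted p = 0.00385, adjusted p = 0.761, exact permutation p = 0.013), a difference below 2-fold. With DESeq2 its adjusted p was 0.0495 with default settings and 0.0501 when genes without any count were removed first, so that this small choice decided the side of the FDR threshold, and the fold kept it from being called in both. Over all alternatives the adjusted p of Ifitm1 ranged from 0.0495 to 1. Ifitm3 was at 1329, 1459 and 1690 CPM in WT and at 1298, 1380 and 1582 CPM in Pon2-/- samples, with a log2 fold change of -0.07 (95% interval -0.25 to 0.11). Ifitm2 ranged from 226.7 to 314.1 CPM over all samples, with a log2 fold change of -0.14 (95% interval -0.37 to 0.09). Whether Ifitm1 differed from its neighbours in its response was not tested. Ifitm2 shares 40.9% of its exon bases with another annotated gene and has near-identical pseudogenes, and its level is therefore uncertain. Bst2, which encodes the virus tether tetherin, ranged from 106.4 to 255.4 CPM, and Samhd1, which encodes a dNTP hydrolase, from 66.2 to 297.6 CPM.

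The effectors of the Ifit, Mx and Rsad2 genes, which interferon strongly induces, were lower. Ifit1 and Ifit2 had counts in all 12 samples, and Ifit3, Mx1, Mx2 and Rsad2 in some of them. Ifit1 and Ifit2, whose products bind viral RNA, ranged from 0.0431 to 66.0 CPM and from 6.88 to 121.6 CPM over all samples, Ifit1 being under the limit of a 0 count only in Pon2-/- replicate 2. Rsad2, which encodes viperin, ranged from 0 to 44.1 CPM, with no count in Pon2-/- replicate 5 and 1 count, under the limit of a 0 count, in Pon2-/- replicate 4. Ifit3 had counts in 1 of 6 WT samples, at 8.78 CPM in replicate 6, and in 3 of 6 Pon2-/- samples, at 4.61 to 26.8 CPM. It shares 97.8% identity with Ifit3b. Mx1, a gene of the Mx GTPase family, was at 0, 0 and 19.5 CPM in WT and at 0, 5.71 and 17.2 CPM in Pon2-/- samples (lowest, median, highest). Counts do not show whether a working Mx protein is made in this strain. Mx1 had counts in 2 of 6 WT samples, 1 of them under the limit of a 0 count, and in 5 of 6 Pon2-/- samples (edgeR unadjusted p = 0.594, exact permutation p = 0.0801). Passing the filter on low counts rested on these 5 and WT replicate 6, so that its being tested depended mainly on the Pon2-/- samples. Its p-values, also those with limma voom and the replicate block, are therefore no support for a difference. Mx2, a related GTPase, was at 0, 0 and 27.9 CPM in WT and at 0, 0.531 and 14.3 CPM in Pon2-/- samples, with counts in 2 and 4 samples. The mice with counts of Ifit3, Mx1 and Mx2 coincided in part. All 3 genes had counts in Pon2-/- replicates 2 and 3. In WT replicate 6 Ifit3 and Mx1 had counts but Mx2 did not, and in WT replicate 3 Mx2 had 27.9 CPM while Ifit3 and Mx1 had none. The summed level of the 11 effectors, most of it from the Ifitm genes, was 4501 ± 426.5 CPM per kb in WT and 3858 ± 314.2 in Pon2-/- samples (SD, n = 6 each), with overlap.

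**Figure D3:**
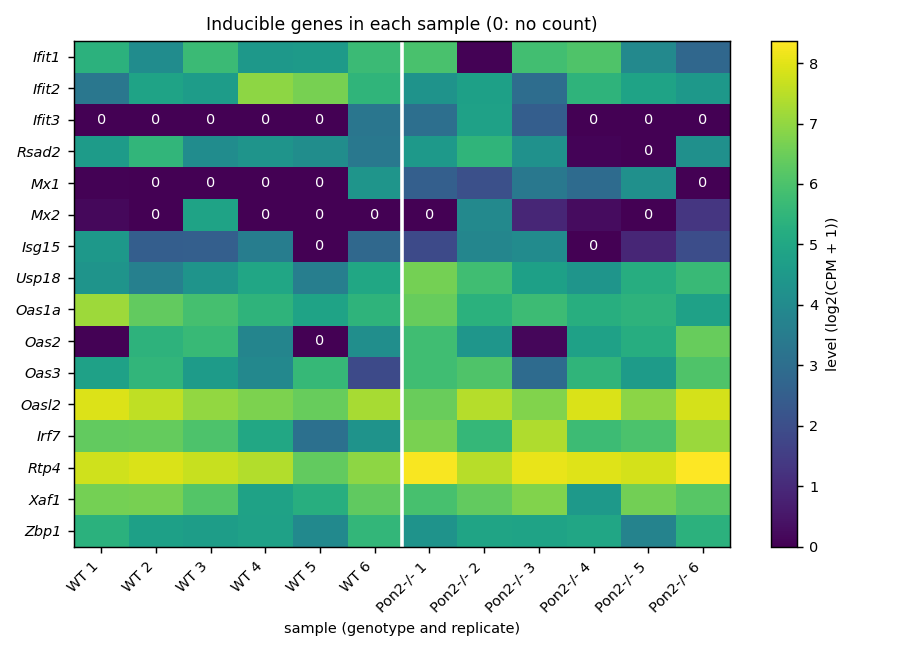
Level of 16 inducible members in each sample as log2(CPM + 1), with WT samples left and Pon2-/- samples right of the white line, and 0 where a sample had no count. Ifit3, Mx1 and Mx2 were without counts in most WT samples, whereas Rtp4 and Oasl2 had counts in all 12 samples.

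In the group of the ISG15 system and other induced genes, 4 of 6 members had an unadjusted p below 0.05 and 0 were called. Ifi27, an interferon-induced gene of mitochondrial and nuclear membranes, was at 79.4 CPM in the lowest, 110.0 in the median and 193.5 in the highest WT sample, and at 108.3, 192.2 and 477.5 CPM in Pon2-/- samples. The highest values were in Pon2-/- replicates 1 and 2, and the genotypes overlapped. The log2 fold change was 1.08 (SE 0.33, edgeR unadjusted p = 0.00611, adjusted p = 0.913, exact permutation p = 0.0303). Rtp4, which encodes a receptor-transporting protein induced by interferon, was at 81.9, 184.7 and 234.7 CPM in WT and at 176.3, 261.4 and 329.8 CPM in Pon2-/- samples. Only replicates 2 and 5 of the Pon2-/- samples lay within the WT range. WT replicates 1 to 3 lay at 201.4 to 234.7 CPM and WT replicates 4 to 6 lower, at 81.9 to 168.1 CPM. The log2 fold change was 0.61 (SE 0.25, edgeR unadjusted p = 0.0263, adjusted p = 1.0, exact permutation p = 0.026). It shares 13.9% of its exon bases with another gene.

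Usp18 removes ISG15 from proteins and damps signalling at IFNAR2. Its gene was at 10.9, 19.2 and 31.0 CPM in WT and at 19.4, 43.2 and 97.1 CPM in Pon2-/- samples, with overlap of 2 Pon2-/- samples with the WT range. The log2 fold change was 1.22 (SE 0.48, edgeR unadjusted p = 0.0247, adjusted p = 1.0, exact permutation p = 0.0238), and 0.88 without Pon2-/- replicate 1. Parp14, an ADP-ribosyltransferase, was at 23.7, 42.1 and 96.1 CPM in WT and at 3.26, 22.7 and 41.9 CPM in Pon2-/- samples, and the genotypes overlapped. Its log2 fold change was -1.37 (SE 0.60, edgeR unadjusted p = 0.0381, adjusted p = 1.0, exact permutation p = 0.0368). Isg15, the ubiquitin-like modifier, was at 0, 5.46 and 21.1 CPM in WT and at 0, 2.82 and 15.4 CPM in Pon2-/- samples, with no count in 1 mouse of each genotype. The interval of its log2 fold change reached from -3.09 to 2.23, and 95.6% identity with another gene makes its level uncertain. Xaf1, which encodes an antagonist of an apoptosis inhibitor, ranged from 21.9 to 110.3 CPM. The summed level of the 6 genes was 198.3 ± 47.1 CPM per kb in WT and 333.8 ± 98.8 in Pon2-/- samples (SD, n = 6 each). The sum ranged from 133.4 to 257.3 in WT and from 203.1 to 465.5 CPM per kb in Pon2-/- samples, with overlap. Most of it came from Ifi27 (means of 80.0 in WT and 168.7 in Pon2-/- samples) and Rtp4 (80.2 and 122.5). Isg15 (10.4 and 7.76) and Parp14 (5.81 and 2.24) had lower means in Pon2-/- samples. The sum therefore does not show a rise across the group.

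**Figure D4:**
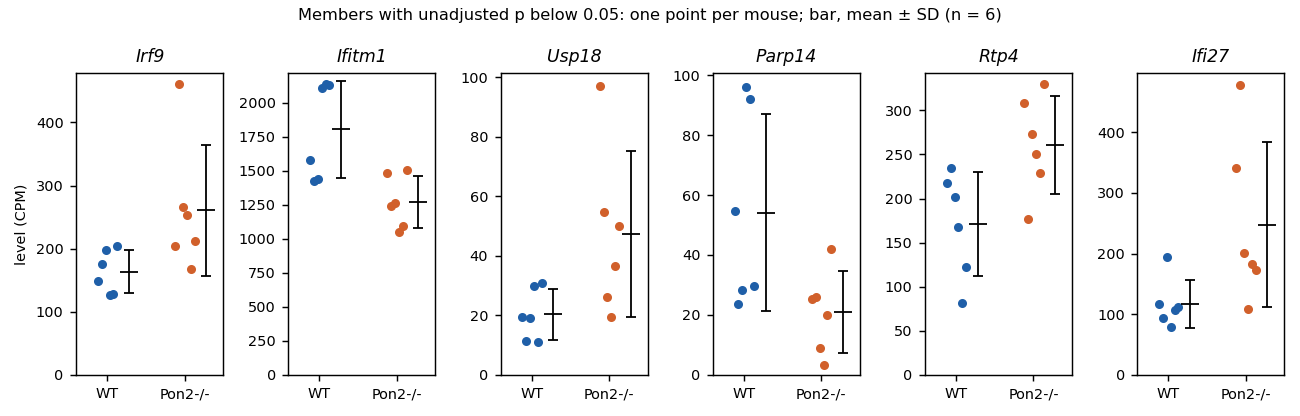
Level in CPM of the 6 members with an unadjusted p below 0.05, with 1 point per mouse, WT in blue, Pon2-/- in orange, and the mean with SD (n = 6). Irf9, Usp18, Rtp4 and Ifi27 have higher means and Ifitm1 and Parp14 lower means in Pon2-/- samples, and the genotypes overlap in every panel.

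MHC class I genes had the highest summed level of the 6 groups, and none of the 6 had an unadjusted p below 0.05. B2m, the invariant light chain, was at 5375, 6677 and 7466 CPM in WT and at 6245, 6479 and 7069 CPM in Pon2-/- samples (lowest, median, highest). The log2 fold change was 0.01 (95% interval -0.16 to 0.17). H2-K1, a heavy chain, was at 3125, 4282 and 4934 CPM in WT and at 3374, 3857 and 4303 CPM in Pon2-/- samples, and its log2 fold change was -0.14 (95% interval -0.36 to 0.07). H2-D1, another heavy chain, ranged from 1918 to 3172 CPM, with a log2 fold change of -0.09 (95% interval -0.38 to 0.21). The genotypes overlapped for all 3 of these genes. The genes that load peptide were lower. Tap1, a subunit of the peptide transporter, was at 10.8, 155.1 and 233.5 CPM in WT and at 92.2, 151.7 and 208.3 CPM in Pon2-/- samples. WT replicate 2 alone lay below 92 CPM. Tap2, its partner, was at 11.5, 39.3 and 64.3 CPM in WT and at 8.71, 24.6 and 80.1 CPM in Pon2-/- samples. Tapbp, which encodes tapasin, ranged from 55.9 to 225.4 CPM. Tapbp and Tap2 overlap opposite-strand genes over 24.9% and 14.1% of their exon bases, and without strand information these reads cannot be separated. The summed level was 10170 ± 1103 CPM per kb in WT and 9998 ± 565.3 in Pon2-/- samples (SD, n = 6 each).

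The spread between samples differed widely among the members. With 1 sample of 80 cells per mouse, differences between mice cannot be told apart from those of sampling and amplifying few cells. The median SD of log2 CPM within genotypes was 0.70 over the 39 tested members and 0.99 over all tested genes, and it was 0.47 for MHC class I genes. Oas2 had an SD of 4.03 in WT and 3.14 in Pon2-/- samples, whereas Ifitm2 had 0.09 and 0.18. Members of like level could differ in spread, since Zbp1 had an SD of 0.58 in WT and 0.61 in Pon2-/- samples. In the plot of spread against level, the members lie within the cloud of all tested genes.

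**Figure D5:**
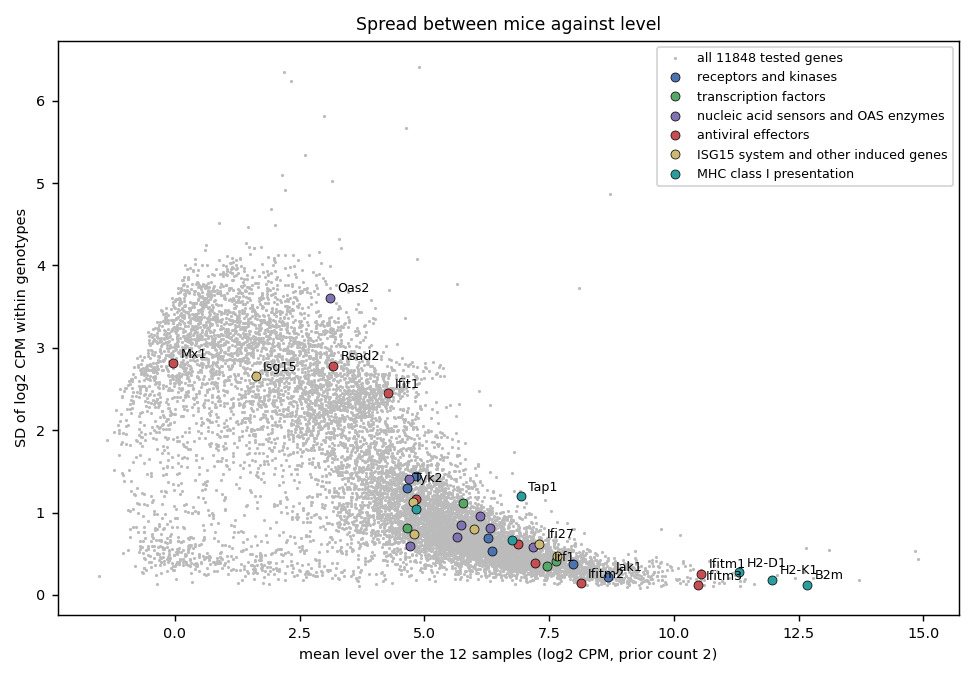
SD of log2 CPM within genotypes against the mean log2 CPM over the 12 samples (prior count of 2), with all 11848 tested genes in grey and the 39 tested members coloured by role. B2m, H2-K1, H2-D1 and the Ifitm genes lie at high level and low spread, and Oas2, Mx1, Rsad2, Isg15 and Ifit1 at low level and high spread.

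Further genes of the same pathways, from lists of 106 genes, gave no call either. Of these, 77 were tested, 0 were called and 4 (5.19%) had an unadjusted p below 0.05, 3 higher and 1 lower in Pon2-/- HSCs, beside 3.13% of tested genes. None of the 17 tested signalling genes had an unadjusted p below 0.05. Of the 36 further interferon-stimulated genes 2 did. Ifi204, a DNA-binding protein of a multigene family, was at 0 to 0.783 CPM in WT and at 5.69 to 21.5 CPM in Pon2-/- samples (edgeR unadjusted p = 0.00173, adjusted p = 0.476). It had counts in 1 of 6 WT samples and passed the filter on low counts only through the Pon2-/- samples, so that a difference between the genotypes was a condition of its being tested. Trim21, an antibody receptor inside cells, was at 6.81 to 36.2 CPM in WT and 3.88 to 112.8 CPM in Pon2-/- samples (edgeR unadjusted p = 0.0307). Of the 24 further antigen presentation genes 2 did. H2-DMb1, which loads peptides on MHC class II, was at 64.7 to 106.5 CPM in WT and at 111.3 to 154.6 CPM in Pon2-/- samples, without overlap, with a log2 fold change of 0.57 (SE 0.17, edgeR unadjusted p = 0.00564, adjusted p = 0.889). H2-Q4, a class I gene, was at 4.03 to 20.6 CPM in WT and at 0.657 to 5.92 CPM in Pon2-/- samples (edgeR unadjusted p = 0.044).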

How the data were processed

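Smart-seq2 libraries of HSCs from 6 WT and 6 Pon2-/- mice were analysed. The authors trimmed reads with Trimmomatic 0.36, aligned them to GRCm38.p5 with STAR 2.5.3a and counted them per gene of GENCODE M12. The deposited values are raw counts, taken as unstranded because Smart-seq2 carries no strand, so that reads of overlapping antisense genes cannot be separated. Gene names came from GENCODE M21, which matched 49326 of 49585 identifiers. Groups were taken from the labels.

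Genotypes were compared with edgeR 4.0.16 in R 4.3.3 (TMM, filterByExpr, quasi-likelihood F-test, genotype as the only term), with Benjamini-Hochberg adjustment over all tested genes, and with two-sided exact permutation tests of log2 CPM (prior count of 2), whose smallest possible p is 0.00216. CPM are TMM-scaled, and levels between genes are per kb of exon. The alternatives were DESeq2 1.42.0, limma 3.58.1 voom, other size factors and filters, a replicate block, and leaving out each sample. Near copies were genes at least 90% identical over at least 50% of a transcript (minimap2 2.31-r1302). The fits were tested on simulated data.

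The members and lists were chosen with earlier results of these data known. All 41 members are named. Lowest, median and highest levels are given for members with an unadjusted p below 0.05, for the 2 highest levels per length and the 2 largest WT spreads of each role. From the other lists, genes with an unadjusted p below 0.05 or without overlap are named. Counts of 8 wells are combined per mouse, and PCR copies are not independent molecules. The symbols Mb21d1, Ly76 and Ahsp, as listed, were not matched and not analysed here.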

Additional observations from a re-analysis of the deposited data

Results flagged for a closer look

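For each member and genotype, the highest and lowest of the 6 samples were compared with the rest by Dixon's test on log2 CPM. It flags about 1 group in 20 by chance if values are normally distributed. That rate does not hold for groups with samples at 0, such as Ifit3, Mx1 and Mx2 in WT. Of 82 groups tested, 8 had an outlying sample. High samples were WT replicate 6 for Ifit3 (8.78 CPM, others at 0) and Mx1 (19.5 CPM, others at most 0.0424), and WT replicate 3 for Mx2 (27.9 CPM, others at most 0.127). Low samples were Pon2-/- replicate 3 for Oas2 (0.114 CPM, others from 20.2), Pon2-/- replicate 6 for Mx1 (0 CPM, others from 3.15), WT replicate 5 for Isg15 (0 CPM, others from 4.70), WT replicate 2 for Tap1 (10.8 CPM, others from 150.6) and WT replicate 4 for H2-K1 (3125 CPM, others from 4216).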

How the results depend on the processing

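No member was called under any of the alternatives, and the 6 members with an unadjusted p below 0.05 kept their direction in all 19. The p stayed below 0.05 in all 19 for Irf9, Ifitm1 and Ifi27, in 17 for Usp18, 16 for Rtp4 and 12 for Parp14. Leaving out 1 sample gave 4 to 7 members with such a p, of which 4 to 6 were among these 6, with 4 without Pon2-/- replicate 1, and 0 to 1 members without overlap, Irf9 without Pon2-/- replicate 5. The count over all tested genes moved more. Against 24 called genes, 8 were called without a filter, 305 with DESeq2 and 5 with the replicate block. Genes with an unadjusted p below 0.05 numbered 371, against 4024 without a filter, 1266 with DESeq2 and 754 with limma voom. DESeq2 was first run without genes that have no count, which gave 304 called genes and 1266 with an unadjusted p below 0.05, and then with its default of all genes. Both are given, the former as an alternative chosen after seeing the data, because the adjusted p of Ifitm1 was 0.0501 in the former and 0.0495 in the latter. Causes of these differences were not tested. Replicate numbers are not stated to pair the mice. Same-numbered samples deviated with correlations of 0.000932 to 0.043, and 1 of 6 correlated best with its own number. Such values cannot settle whether same-numbered mice were handled together. With the replicate block 5 members had an unadjusted p below 0.05, namely Irf9, Ifitm1, Rtp4, Ifi27 and Mx1. Usp18 and Parp14 were lost there. The spread between samples (edgeR's biological coefficient of variation, 99.2%) limits what can be called at 6 mice per genotype.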
